A study of Mus musculus with 6 samples.

Results

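The guanylate-binding proteins (GBPs) encoded on chromosome 3 were followed in HL-1 cells, a mouse line of atrial cardiomyocyte origin. The 5 genes were taken by their symbols, Gbp2, Gbp2b, Gbp3, Gbp5 and Gbp7, out of 49492 genes in the count table, and all 5 passed the filter that left 16473 genes for testing. The cells of all 6 libraries were stimulated with palmitic acid, a saturated fatty acid, and had been transfected either with the long noncoding RNA ZNF593-AS (3 libraries) or with vector (3 libraries). Setting the overexpressed RNA against vector addresses its effect on gene expression under palmitic acid. No library lacked palmitic acid, so none of the values below can be set against untreated cells. The treatment fields of ZNF593-AS replicates 2 and 3 name ZNF594-AS and ZNF595-AS, while the titles of all 3 give ZNF593-AS, and the titles were followed. The level of ZNF593-AS itself was not analysed here.

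Gene counts summed to between 61042914 and 84547615 in the ZNF593-AS libraries and between 51470457 and 73529088 in the vector libraries. Nothing in the labels says that each replicate was its own culture, so p-values here reflect only how far these samples spread, possibly for technical reasons. Of 13 cardiomyocyte markers 9 were under 1 CPM (counts per 1000000 after TMM scaling of the libraries), with no count for the atrial genes Nppa and Sln, while the troponin gene Tnnt2 was at 97.4 ± 8.62 CPM with ZNF593-AS and 89.2 ± 5.99 CPM with vector (SD, n = 3 each). Among cells known for high GBP expression, 6 of 9 macrophage markers and 7 of 7 T and NK cell markers were under 1 CPM. The summed macrophage markers stood at 13.1 to 13.9 CPM with ZNF593-AS and 10.5 to 12.9 CPM with vector, and those of T and NK cells at 0 to 0.206 CPM with ZNF593-AS and 0.149 to 0.194 CPM with vector. In the T and NK list Ncr1, Klrb1c, Nkg7 and Ifng had no count in any library. Cd3g had 14 counts with ZNF593-AS and 12 with vector, Cd8a 10 with each, and Cd3e 4 with ZNF593-AS and 8 with vector. In the macrophage list Adgre1 had 0 counts with ZNF593-AS and 4 with vector, and Itgam 28 with ZNF593-AS and 10 with vector. Mrc1 had 16 counts with ZNF593-AS and 6 with vector, and Fcgr1 4 with ZNF593-AS and 5 with vector. Lyz2 was lower, at 0.32 ± 0.0657 CPM with ZNF593-AS and 0.468 ± 0.0752 CPM with vector. Its groups did not overlap, as for 13.4% of all tested genes in this direction, but it did not pass (log2 fold change -0.53, edgeR adjusted p = 0.406). Ptprc was at 0.564 CPM with ZNF593-AS and 0.482 CPM with vector and did not pass. Other macrophage markers were above 1 CPM and did not pass. Cd14 was at 3.82 ± 0.42 CPM with ZNF593-AS and 3.55 ± 0.656 CPM with vector. Csf1r was at 2.39 ± 0.248 CPM with ZNF593-AS and 2.45 ± 0.178 CPM with vector. Cd68, the most abundant macrophage marker, was the 1 of that list that passed, and it was higher, at 6.28 ± 0.443 CPM with ZNF593-AS and 4.55 ± 0.781 CPM with vector (log2 fold change 0.46, edgeR adjusted p = 0.0316). The muscle filament gene Des was also higher (0.26, edgeR adjusted p = 0.0363). The summed fibroblast markers were at 252 to 294 CPM with ZNF593-AS and 320 to 328 CPM with vector, but the list went both ways. Col1a1 (log2 fold change -0.45) and Col1a2 (-0.25) were called lower and Pdgfra (0.39) higher. The calls of Des, Cd68, Col1a2 and Pdgfra each ended when some single libraries were left out, that of Col1a2 also with library totals (-0.16, edgeR adjusted p = 0.131) and that of Pdgfra also with limma-voom (0.38, limma adjusted p = 0.0627). The part of these markers in the results below was not tested.

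GBPs are large GTPases of the dynamin superfamily that cells make in quantity after exposure to interferon. They assemble on the membranes of pathogen-containing vacuoles and on bacteria in the cytosol, where they help to break these membranes open and to start inflammasome signalling. In the mouse their genes lie in clusters on chromosomes 3 and 5. Transcription is switched on through the interferon-stimulated response element (ISRE), bound by interferon regulatory factors, and through the gamma-activated site (GAS), which answers to interferon gamma.

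The 5 genes lay side by side on the plus strand over 144.0 kb of GRCm38, between 142493978 and 142638008 on chromosome 3, in the order Gbp5, Gbp7, Gbp3, Gbp2b, Gbp2, and each is annotated as protein coding. Gbp5 spanned 142493978 to 142522344, Gbp7 142530342 to 142550149 and Gbp3 142560026 to 142573209. Gbp2b, formerly Gbp1, spanned 142594847 to 142619179 and Gbp2 142620602 to 142638008. The promoter windows of all 5, from 250 bases before to 50 bases from the start in RefSeq (GRCm38.p6, plus strand), are shown because the genes moved together in the data. Capitals mark every match to the ISRE core, which reads GAAA, any 2 bases and GAAA, and stands here as its reverse complement, TTTC, any 2 bases and TTTC.
Gbp5 (chr3:142496684-142496983): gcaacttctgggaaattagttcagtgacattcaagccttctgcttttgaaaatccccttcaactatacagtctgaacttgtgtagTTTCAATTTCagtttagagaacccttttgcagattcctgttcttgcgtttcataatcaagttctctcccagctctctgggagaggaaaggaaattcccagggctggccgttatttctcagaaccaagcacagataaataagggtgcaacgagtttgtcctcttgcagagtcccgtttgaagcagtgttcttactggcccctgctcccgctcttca
Gbp7 (chr3:142530086-142530385): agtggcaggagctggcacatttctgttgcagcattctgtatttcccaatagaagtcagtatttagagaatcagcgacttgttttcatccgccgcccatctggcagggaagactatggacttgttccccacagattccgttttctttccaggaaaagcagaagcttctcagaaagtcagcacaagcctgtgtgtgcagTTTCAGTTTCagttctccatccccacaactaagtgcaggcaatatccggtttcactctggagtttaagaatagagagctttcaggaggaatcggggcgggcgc
Gbp3 (chr3:142559794-142560093): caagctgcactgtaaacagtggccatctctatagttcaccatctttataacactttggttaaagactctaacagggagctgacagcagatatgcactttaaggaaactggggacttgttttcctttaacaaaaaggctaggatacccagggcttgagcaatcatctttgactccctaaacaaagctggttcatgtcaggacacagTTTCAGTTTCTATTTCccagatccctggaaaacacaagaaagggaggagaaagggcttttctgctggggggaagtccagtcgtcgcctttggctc
Gbp2b (chr3:142594597-142594896): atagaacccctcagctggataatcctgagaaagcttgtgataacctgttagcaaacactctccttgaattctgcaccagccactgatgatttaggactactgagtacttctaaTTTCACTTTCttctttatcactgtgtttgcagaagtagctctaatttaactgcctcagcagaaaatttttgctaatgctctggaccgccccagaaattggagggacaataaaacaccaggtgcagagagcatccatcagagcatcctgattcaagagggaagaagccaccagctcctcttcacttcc
Gbp2 (chr3:142620413-142620712): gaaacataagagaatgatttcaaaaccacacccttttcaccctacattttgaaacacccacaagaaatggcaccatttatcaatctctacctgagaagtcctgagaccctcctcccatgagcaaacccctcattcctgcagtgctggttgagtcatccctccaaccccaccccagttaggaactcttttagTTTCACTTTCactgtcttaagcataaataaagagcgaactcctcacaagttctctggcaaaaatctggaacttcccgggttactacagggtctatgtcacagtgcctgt

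Every one of the 5 windows held the ISRE core, on the strand opposite to transcription, against 3.44% of the 32851 mouse promoter windows of the same length searched on both strands. It began 53 bases before the start in Gbp7 and 59 bases before it in Gbp2, and farther out in Gbp2b, at 137 bases, and in Gbp5, at 165 bases. The window of Gbp5 lies wholly inside the span of the gene given above. The bases before the first base of that span, 142493978, were not searched. In Gbp3 a pair of matches overlapped, beginning 45 and 39 bases before the start, and a second RefSeq start of Gbp3 had none. The GAS core TTCNNNGAA, found in 8.3% of all windows, occurred in 2 of the 5 genes, Gbp5 and Gbp7, with 2 matches each. The NF-kB motif, in 8.46% of all windows, was found in Gbp5, beginning 77 bases before the start, and in Gbp2, beginning 7 bases after it. Matches to different motifs did not overlap. Of 5 neighbouring genes with a window in the table, Pdlim5 also had an ISRE core, at 1 of its 2 starts, and none had the GAS core. At its other start Pdlim5 had 2 NF-kB matches. The 6 Gbp genes of chromosome 5 had no window among those searched, so the clusters cannot be compared in this respect. These matches describe letters in the windows and not binding.

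**Figure D1:**
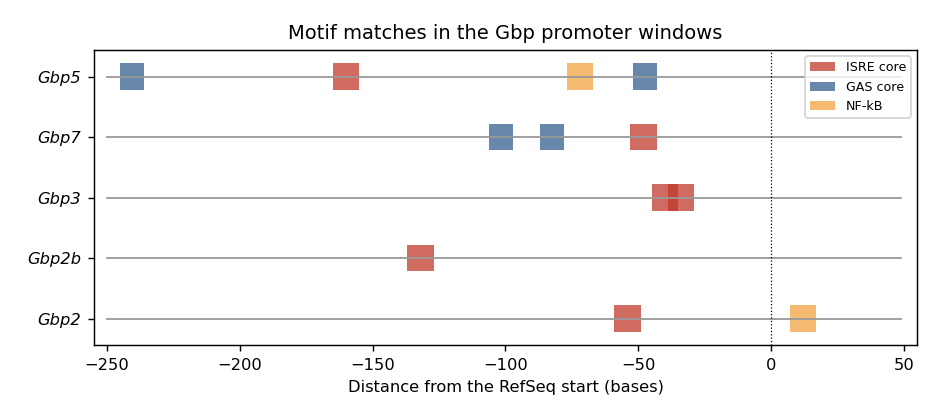
Motif matches in the promoter windows of the 5 genes, with distance from the RefSeq start in bases on the horizontal axis and 1 gene per line in chromosomal order. Red boxes are ISRE core matches, blue boxes GAS core matches and orange boxes NF-kB matches. An ISRE core is present in all 5 windows and a GAS core in Gbp5 and Gbp7.

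RNA of every gene in the cluster was much lower in cells given ZNF593-AS than in cells given vector. Together the 5 genes fell to 102.6 ± 32.9 CPM with ZNF593-AS, against 2124 ± 266 CPM with vector (SD, n = 3 each), a 20.7-fold difference. Their counts made up 0.00783, 0.00971 and 0.0141% of all counts in ZNF593-AS replicates 1 to 3 and 0.227, 0.187 and 0.202% in vector replicates 1 to 3. In edgeR's quasi-likelihood test 5 of 5 fell at an adjusted p under 0.05, where 6.16% of all tested genes fell, and 0 of 5 rose, where 2.23% of all tested genes rose (8.4% were called in either direction). TMM scaling gave 1015 lower and 368 higher genes and library totals gave 811 lower and 1284 higher, with all 5 members lower under both. The median log2 fold change of the 5 was -4.37, beside 0.01 over all tested genes. For all 5 members every ZNF593-AS library lay below every vector library, as it did for 13.4% of all tested genes. In a bulk sample fewer cells that express a gene and less of its RNA per cell cannot be told apart.

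Gbp3, the most abundant of the 5, was at 36.7, 46.0 and 77.1 CPM in ZNF593-AS replicates 1 to 3 and at 1272, 981.5 and 1042 CPM in vector replicates 1 to 3. Its lowest vector library was 12.7 times its highest ZNF593-AS library, so the groups stood far apart, although ZNF593-AS replicate 3 was 2.1 times replicate 1. The log2 fold change was -4.37 ± 0.34 (SE; edgeR adjusted p = 0.000837), a 20.7-fold fall.

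Gbp2b, which like Gbp2 is known to coat the vacuole of Toxoplasma, was at 20.3, 23.2 and 30.5 CPM in ZNF593-AS replicates 1 to 3, against 627.6, 469.1 and 550.6 CPM in vector replicates 1 to 3. ZNF593-AS replicate 3 was again the highest of its group and vector replicate 1 the highest of the other, and the groups did not overlap. The fall was 22.3-fold (log2 fold change -4.48 ± 0.18, edgeR adjusted p = 6.79e-07).

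Gbp2, which carries a lipid anchor and is known to restrict growth of Toxoplasma in mice, was at 10.8, 13.4 and 16.9 CPM in ZNF593-AS replicates 1 to 3 and at 261.2, 211.9 and 233.2 CPM in vector replicates 1 to 3. It had the smallest fall of the 5, 17.3-fold (log2 fold change -4.11 ± 0.17, edgeR adjusted p = 7.2e-07). Every vector library was at least 12.6 times every ZNF593-AS library.

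Gbp7, reported in mouse macrophages to bring oxidase and autophagy proteins to the phagosome, stood at 5.08, 7.0 and 9.0 CPM in ZNF593-AS replicates 1 to 3. With vector it was nearly level, at 141.7, 137.1 and 134.2 CPM. The log2 fold change was -4.31 ± 0.18 (edgeR adjusted p = 2.32e-06), a 19.8-fold fall. Its coefficient of variation was 27.9% among the ZNF593-AS libraries and 2.74% among the vector libraries.

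Gbp5, known for promoting assembly of the NLRP3 inflammasome, was the least abundant member and had the largest fall of the 5. It was at 2.95, 3.08 and 5.91 CPM in ZNF593-AS replicates 1 to 3 and at 113.9, 97.2 and 99.2 CPM in vector replicates 1 to 3, with no overlap. The log2 fold change was -4.73 ± 0.28 (edgeR adjusted p = 0.000217), a 26.5-fold fall. Ordered from the lowest log2 fold change among 16473 tested genes, Gbp5 held place 19, Gbp2b place 29, Gbp3 place 34, Gbp7 place 36 and Gbp2 place 47.

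**Figure D2:**
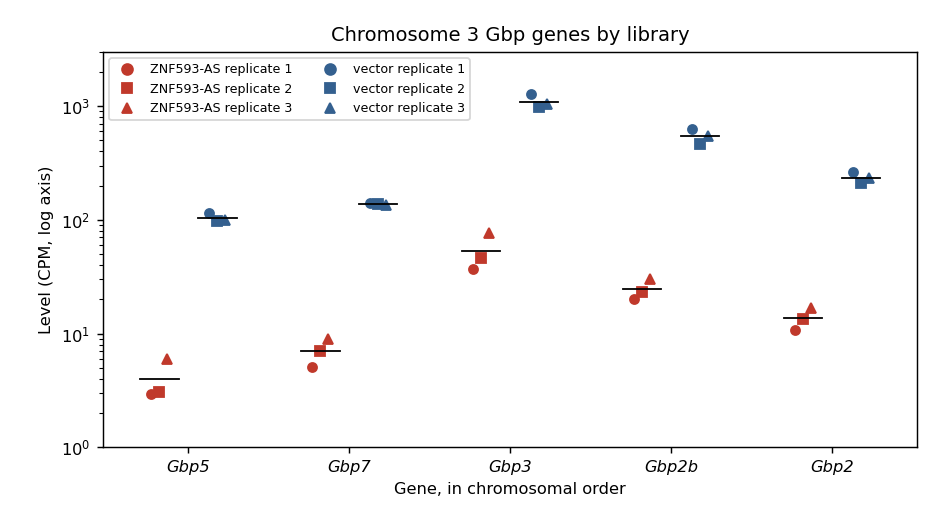
Level of each chromosome 3 Gbp gene in each library, in CPM on a log axis, with genes in chromosomal order. Red symbols are the ZNF593-AS libraries, blue symbols the vector libraries, shapes mark replicates 1 to 3 and bars the mean of 3 libraries. No ZNF593-AS symbol reaches a vector symbol of the same gene, which held for 13.4% of all tested genes in this direction, and the triangle of ZNF593-AS replicate 3 is the highest red symbol for all 5 genes.

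The ZNF593-AS libraries differed among themselves in a shared way. All 5 genes were highest in ZNF593-AS replicate 3 and lowest in replicate 1, whereas replicate 3 was the highest of its group for 35.0% of all tested genes and for 45.3% of the genes called lower. The ratio of the highest to the lowest ZNF593-AS library ran from 1.5 in Gbp2b to 2.1 in Gbp3. Among the vector libraries it ran from 1.06 in Gbp7 to 1.34 in Gbp2b, and replicate 1 was the highest for all 5, as it was for 33.0% of all tested genes and 44.5% of the genes called lower. Without ZNF593-AS replicate 3 the log2 fold changes were -5.1 for Gbp5, -4.73 for Gbp3, -4.66 for Gbp2b, -4.51 for Gbp7 and -4.28 for Gbp2, so the falls were larger without that library. Without ZNF593-AS replicate 1 they were smaller, at -4.55 for Gbp5, -4.16 for Gbp3, -4.36 for Gbp2b, -4.11 for Gbp7 and -3.96 for Gbp2.

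Per length, the levels of the 5 genes kept one order in both groups. In TPM (counts per kilobase of exon, scaled to 1000000 per library) Gbp3 was at 38.1 ± 14.7 with ZNF593-AS and 742.6 ± 83.0 with vector, and Gbp2b at 20.5 ± 4.14 with ZNF593-AS and 429.8 ± 55.3 with vector (SD, n = 3 each). Gbp2 was at 12.7 ± 2.73 TPM with ZNF593-AS and 206.8 ± 18.2 TPM with vector. Gbp7 was at 2.93 ± 0.794 TPM with ZNF593-AS and 54.2 ± 0.574 TPM with vector, and Gbp5 came last, at 1.40 ± 0.570 TPM with ZNF593-AS and 34.4 ± 2.09 TPM with vector. Within each group the ranges of neighbours in this order did not overlap, but the order of Gbp7 and Gbp5 rests on the exon lengths of 5614 and 6637 bases in the table. With the principal coding transcript of GENCODE M21, which is 3055 bases long for Gbp5, Gbp5 took the larger mean share of the 5-gene level. It was 3.51% against 3.45% for Gbp7 with ZNF593-AS and 4.50% against 3.27% for Gbp7 with vector. In ZNF593-AS replicate 2 Gbp5 held less, 3.06% against 3.78% for Gbp7, so the order differed among the ZNF593-AS libraries. Ranked by TPM among all genes, Gbp3 was at place 3077 with ZNF593-AS and at place 202 with vector, and Gbp5 at place 12822 with ZNF593-AS and 3304 with vector.

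Within the cluster, Gbp3 and Gbp2b held most of the level in both groups. Of the summed level per kilobase of the 5 genes, Gbp3 held 49.6 ± 3.98% with ZNF593-AS and 50.6 ± 1.04% with vector, and Gbp2b held 27.6 ± 2.60% with ZNF593-AS and 29.2 ± 1.03% with vector. The libraries of both groups overlapped for Gbp3 and Gbp2b, and for Gbp7 as well. Gbp2 took a larger share in the ZNF593-AS libraries, 17.8, 18.1 and 15.4% in replicates 1 to 3, against 13.7, 14.3 and 14.4% in vector replicates 1 to 3. Gbp5 took a smaller one, 1.85, 1.58 and 2.04% in ZNF593-AS replicates 1 to 3, against 2.26, 2.48 and 2.32% in vector replicates 1 to 3. For Gbp2 and Gbp5 the groups did not overlap, and the exact 2-sided permutation p was 0.1, the smallest that 3 against 3 libraries can give (0.25 adjusted over the 5 shares), so this test could not pass 0.05 whatever the shares were. These shares do not depend on how the libraries were scaled. Of the 10 pairs of members, the ratio of Gbp2 to Gbp5 moved most, with a log2 ratio of counts of 1.83 ± 0.31 with ZNF593-AS and 1.18 ± 0.06 with vector (SD, n = 3 each, exact permutation p = 0.1, 0.2 adjusted over 10 pairs).

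**Figure D3:**
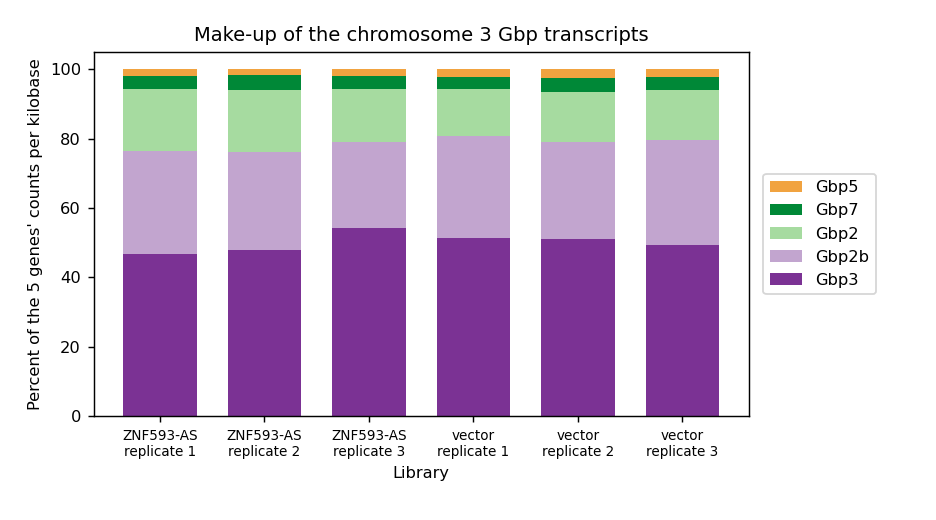
Percent of the 5 genes' summed counts per kilobase taken by each gene, 1 stacked bar per library, ZNF593-AS replicates on the left and vector replicates on the right. Gbp3 holds 46.7 to 54.1% of the level in the ZNF593-AS bars and 49.4 to 51.4% in the vector bars, although the summed level differed 20.7-fold between the groups in CPM.

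Few stretches of the members occur in their relatives. Of the 50-base stretches in GENCODE M21 transcripts of Gbp2, 2.03% also occur in Gbp2b, and of those of Gbp3 3.75% also occur in Gbp7. Gbp5 shared 0% with other Gbp genes and 1.44% with any other gene. Gbp7 shared 12.7% of its stretches with other genes, including 10.5% with Gm43802, a gene model of 637 exon bases that lies wholly inside Gbp7 exons on the same strand. Gm43802 was at 1.38 ± 0.325 CPM with ZNF593-AS and 26.9 ± 2.99 CPM with vector, a 19.8-fold fall like that of Gbp7, and its reads cannot be told apart from those of Gbp7. Mir6381 overlaps 24 bases of a Gbp2 exon on the opposite strand and was at 0.286 ± 0.0795 CPM with ZNF593-AS and 6.78 ± 0.204 CPM with vector. Gm43802 had 5018 counts in all, so reads in such overlaps were not all left out. Whether the same reads were also counted for the member is not given in the sources used here.

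No tested gene outside the borders of the cluster passed within 500 kb of it. In that window 8 genes other than the members were tested and 2 were called, beside 8.4% of all tested genes called in either direction. The 2 were Gm43802 and Mir6381 (edgeR adjusted p = 3.23e-12 and 9.04e-12), which share exon bases with members. Kyat3, a kynurenine aminotransferase gene 63.0 kb beyond Gbp2, was at 2.73, 1.96 and 2.08 CPM in ZNF593-AS replicates 1 to 3 and at 2.62, 3.59 and 2.90 CPM in vector replicates 1 to 3. Its groups overlapped (log2 fold change -0.42 ± 0.17, edgeR adjusted p = 0.154), and it passed without ZNF593-AS replicate 1 (-0.59, edgeR adjusted p = 0.0479). Gtf2b, which encodes a general transcription factor, was at 15.97 ± 0.436 CPM with ZNF593-AS and 16.2 ± 0.470 CPM with vector (SD, n = 3 each). The remaining tested neighbours were Pdlim5 on the other side, 98.3 kb from Gbp5 (-0.14 ± 0.06, edgeR adjusted p = 0.247), Pkn2 (-0.10 ± 0.06), Bmpr1b (0.34 ± 0.35) and Gm43646 (-0.27 ± 0.13), none of which passed. For Pdlim5, Pkn2 and Gm43646 every ZNF593-AS library lay below every vector library, a separation that 13.4% of all tested genes showed. Gbp2-ps, annotated 20.9 kb beyond Gbp2, had no count in any library.

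**Figure D4:**
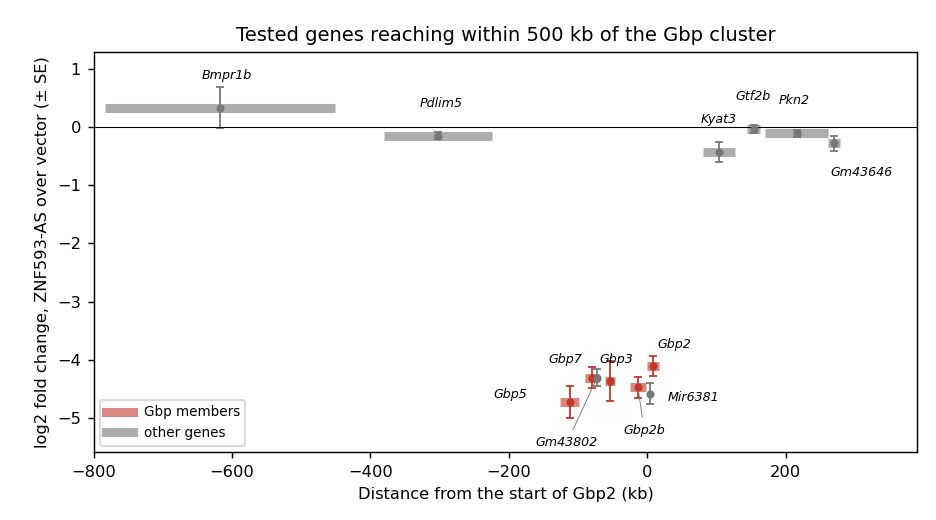
Log2 fold change (ZNF593-AS over vector, error bars are SE) of the tested genes that reach within 500 kb of the cluster, against distance from the start of Gbp2 in kb. Bars give the extent of each gene, red for the 5 Gbp members and grey for other genes. The members lie between -4.73 and -4.11, with Gm43802 and Mir6381 among them, and the other neighbours lie between -0.42 and 0.34.

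The 6 relatives on chromosome 5 also fell, beside 6.16% of all tested genes, and their log2 fold changes had a median of -3.83. They ran from Gbp8 (-3.04 ± 0.22) through Gbp9 (-3.70 ± 0.24), Gbp6 (-3.82 ± 0.21), Gbp10 (-3.85 ± 0.21) and Gbp4 (-3.98 ± 0.15) to Gbp11 (-4.19 ± 0.19). Their summed level was 24.8 ± 7.32 CPM with ZNF593-AS and 346.4 ± 27.1 CPM with vector (SD, n = 3 each). The counts of the chromosome 3 genes over those of the chromosome 5 genes came to 4.13, 3.99 and 4.25 in ZNF593-AS replicates 1 to 3, against 6.41, 5.84 and 6.09 in vector replicates 1 to 3. The groups did not overlap, and the exact 2-sided permutation p was 0.1, the smallest possible here. Counts of Gbp6 and Gbp10 are uncertain, since 70.7% of the stretches of Gbp6 and 84.1% of those of Gbp10 occur elsewhere. The atlastins are GTPases of the endoplasmic reticulum that are related to GBPs but act outside immunity. They did not pass in 3 of 3 cases, where 8.4% of all tested genes passed in either direction. Atl2 was at 96.3 ± 6.83 CPM with ZNF593-AS and 100.6 ± 2.74 CPM with vector.

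Upstream of the Gbp genes, the 4 interferon receptor genes did not pass, where 8.4% of all tested genes passed in either direction. Stat2, Irf1 and Irf9 fell. Ifnar1 was at 29.5 ± 0.713 CPM with ZNF593-AS and 29.0 ± 0.694 CPM with vector, Ifnar2 had a log2 fold change of -0.10 ± 0.06, and the receptor genes for interferon gamma, Ifngr1 (-0.13 ± 0.08) and Ifngr2 (-0.03 ± 0.07), did not pass either. Ifng had no count in any library, which allows up to 0.0149 CPM over the 6 libraries if a read pair counts as 2, counting error only. Ifnb1, the gene of interferon beta, had 0, 0 and 4 counts in ZNF593-AS replicates 1 to 3. In vector replicates 1 to 3 it had 12, 22 and 22 counts. It was the 1 of 5 tested ligands and receptors that fell (edgeR adjusted p = 0.00236), beside 6.16% of all tested genes. It was too low to be tested on halved counts or among genes of at least 1 CPM.

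Of 6 tested kinases and transcription factors that act upstream of Gbp genes 5 fell, against a background of 6.16%. Stat2, a subunit of the complex that type I interferon activates, was at 66.4 ± 13.5 CPM with ZNF593-AS and 429.0 ± 23.4 CPM with vector (SD, n = 3 each), a 6.47-fold fall (log2 fold change -2.69 ± 0.13, edgeR adjusted p = 3.28e-08). Irf1, a direct activator of Gbp genes, fell 4.31-fold, and Irf9, the DNA-binding subunit of the same complex, 2.82-fold. All of these folds were smaller than the 17.3-fold of Gbp2, a difference between genes that was not tested. The kinase genes Jak2 (-0.45 ± 0.07, edgeR adjusted p = 0.000232) and Jak1 (-0.20 ± 0.06, edgeR adjusted p = 0.0404) fell slightly, and the call of Jak1 ended when any 1 library was left out, with library totals (adjusted p = 0.309), with no filter and with the replicate number as a block. Tyk2 did not pass (0.24 ± 0.12), and Irf8 was too low to be tested, with 22 counts with ZNF593-AS and 12 with vector. Among 6 inhibitors of the pathway 3 fell, beside 6.16% of all tested genes. They were Usp18 (17.2-fold), which blocks the type I receptor, Socs1 (-1.30 ± 0.15) and the repressor gene Irf2 (-0.75 ± 0.06). Socs3 (0.09 ± 0.06) and Ptpn2 (-0.19 ± 0.06) did not pass.

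The immunity-related GTPases (IRGs), which are known to work with GBPs on the same vacuoles, fell in 8 of 8 cases, beside 6.16% of all tested genes. Their median log2 fold change was -4.22, next to the -4.37 of the chromosome 3 Gbp genes. They ran from Irgm1 (-2.86 ± 0.11) to Gm12250 (-5.07 ± 0.22), the gene of Irgb10, with Ifi47 (-4.80 ± 0.14) and Tgtp1 (-4.14 ± 0.12) having the smallest p, and 7 of the 8 were highest among the ZNF593-AS libraries in replicate 3. Enzymes that attach and trim the lipid anchor of GBPs did not pass in 5 of 5 cases, among them Fnta (0.11 ± 0.07) and Pggt1b (-0.08 ± 0.09). Of all tested genes 8.4% passed in either direction, so most genes did not pass. Of 13 genes of ATG8 conjugation and ubiquitin tagging, which direct GBPs to membranes, 1 fell, a share near the 6.16% of all tested genes, namely the ubiquitin ligase gene Trim21 (8.1-fold, log2 fold change -3.02 ± 0.12). Atg5 (-0.09 ± 0.06) and Map1lc3a (0.24 ± 0.07, edgeR adjusted p = 0.052) did not pass. Of 6 tested inflammasome genes 4 fell, beside 6.16% of all tested genes, and by much less than the Gbp genes. Casp4, the caspase that GBPs help to activate on bacteria, fell 1.63-fold, Casp1 2.13-fold, the pore gene Gsdmd 1.38-fold and Il18 2.84-fold. Nlrp3 was low in both groups, at 0.275 ± 0.0788 CPM with ZNF593-AS and 0.264 ± 0.0616 CPM with vector. It did not pass (0.09 ± 0.39, edgeR adjusted p = 0.934). The DNA sensor gene Aim2 was at 20.6 ± 0.462 CPM with ZNF593-AS and 22.2 ± 1.65 CPM with vector and did not pass.

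**Figure D5:**
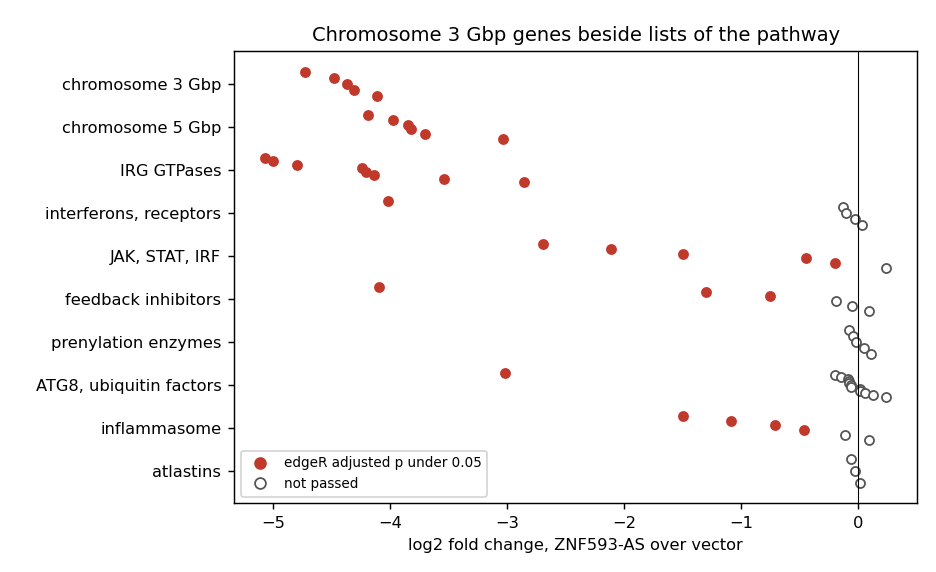
Log2 fold change (ZNF593-AS over vector) of each tested gene in the lists, 1 line per list and 1 point per gene. Filled points passed edgeR's test at an adjusted p under 0.05 and open points did not. The chromosome 3 Gbp genes lie at -4.73 to -4.11, near the chromosome 5 Gbp genes and the IRGs. The receptors, prenylation enzymes and atlastins lie near 0, as does the median of all tested genes (0.01).

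Among 11071 candidates, the genes with levels most like the mean pattern of the 5 members were Mx2, Tgtp2, Phf11b, Igtp and Usp18. Candidates left out symbols of the form Gm plus a number and those ending in Rik, so Gm43802 was not ranked. Likeness was the root mean square difference of centred log2 CPM, which was 0.094 for Mx2 and 0.156 for Usp18, and 0.082 (Gbp3) to 0.204 (Gbp5) for the members themselves. With 6 libraries in a pair of groups this measure rests mostly on the size of the fall. Mx2, an antiviral GTPase of the dynamin superfamily, was at 42.9 ± 11.3 CPM with ZNF593-AS and 941.4 ± 24.0 CPM with vector (log2 fold change -4.46 ± 0.19). The IRG genes Tgtp2 and Igtp fell 18.9-fold and 18.5-fold, and Phf11b fell 18.1-fold.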

How the data were processed

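Total RNA was sequenced on an Illumina platform, per the labels. The authors deposited unnormalized whole-number counts per gene together with exon lengths, per the file headers. The submitters' processing notes name CASAVA, cutadapt 1.2.1, Bowtie2, TopHat2 and GRCm38 without roles. What did the counting, how strand and overlaps were handled, and which annotation was used is not given in the sources used here. Between 67.02 and 69.98% of the nonzero counts were even, so each read of a pair was probably counted. Dates stood in place of 26 gene names and were kept. Replicates differed by more than counting noise, with at least 9.98 chi-square units a gene on halved counts.

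Samples were grouped by title. The filter was filterByExpr with a count of 10 and a total of 15, leaving 99.965% or more of the counts of each library. After TMM scaling, the test of ZNF593-AS over vector was that of edgeR 4.0.16 in R 4.3.3 (quasi-likelihood fit with robust settings; p-values 2-sided and Benjamini-Hochberg adjusted over 16473 genes, threshold 0.05). An SE is the log2 fold change divided by the square root of F. Shares and ratios were compared by exact permutation over libraries. Promoter windows came from RefSeq (5 of 5 members matched) and transcripts from GENCODE M21, whose coordinates for the members equal those of the table. The pipeline was tested on simulated data. One gene of the pathway lists is not reported here. The members, lists and tests were chosen with earlier results of these data known. Named were the members, called list genes (of lists with over 6, the 3 with the smallest p) and tested neighbours within 500 kb. Also named were the 5 most alike genes of at least 1 CPM (log2 of CPM plus 0.01), without Gm-number and Rik symbols. Other list genes, among them Irgm1, were picked after their values were seen. Alternatives were library totals, DESeq2 size factors, other filters, DESeq2 1.42.0, limma-voom 3.58.1, halved counts, a replicate block, other lengths and leaving out each library.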

Additional observations from a re-analysis of the deposited data

How the results depend on the processing

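The falls of the 5 Gbp genes passed under all 14 alternatives run for each, with a largest adjusted p of 0.0188 (Gbp3 without ZNF593-AS replicate 2). Their median log2 fold change lay between -4.66 and -4.16 when 1 library was left out. With library totals in place of TMM, 2095 genes were called (811 lower, 1284 higher), against 1383 (1015 lower, 368 higher), so 38.7% of calls were lower, against 73.4% with TMM, and the median of all genes was 0.1 against 0.009. With no filter on low counts 561 genes were called higher. When 1 library was left out, between 138 and 394 were called higher, and between 965 and 1356 in all. The count of ligands and receptors that fell was 0 with genes of at least 1 CPM and 0 on halved counts, where Ifnb1 was not tested. Among the ATG8 and ubiquitin genes 1 was called higher, Map1lc3a, under library totals, without a filter, and when the filter was 1 CPM. Values near 0 changed sign with library totals for Ifngr2 (0.06), Atl2 (0.03), Pggt1b (0.02), Atg5 (0.01) and Gtf2b (0.07). Leaving out 1 library gave -0.09 to 0.04 for Ifngr2 and -0.04 to 0.01 for Gtf2b. The difference in share, ZNF593-AS minus vector, ran from -3.23 to 0.499 percentage points for Gbp3 and from -0.0264 to 0.378 for Gbp7 when 1 library was left out, so no direction is given for these shares. It kept its sign for Gbp2 (2.48 to 3.87) and Gbp5 (-0.638 to -0.408).

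Deviations of same-numbered libraries had correlations of -0.0848, -0.0285 and 0.0467 for replicates 1 to 3. Those of differently numbered libraries ran from -0.1315 to 0.1582. The same-numbered values lay inside that range, and so few libraries cannot show whether the numbers pair the samples. With the replicate number as a block 1331 genes were called and 5 of 5 members. Depth left Irf8 (34 counts in all), Pycard (24), Il1b (16) and Ifng (0) untested, and Ifnb1 was tested on 60.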
